A study of Mus musculus with 1627 samples.

Results

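The genes described here are those of the cytosolic ribosomal proteins, chosen by symbol alone: Rpl, Rps or Rplp followed by a number and at most a short suffix, which leaves out the Rps6k kinases and rows named as pseudogenes. They were 83 of the 23725 genes in the count table, 48 of the large subunit, 32 of the small subunit and 3 of the acidic stalk. The cells were regulatory T cells (Tregs), the CD4+ T cells that express the transcription factor Foxp3 and restrain immune responses. They came from male mice, 8 months old, of the strain B6 Foxp3-Ires-Gfp, in which a green fluorescent protein marks Foxp3-expressing cells, and every animal had received cardiotoxin, a venom toxin that destroys muscle fibres, in muscle 4 days earlier. Live TCRb+ CD4+ GFP+ cells were sorted from spleen (1 library) and from injured muscle (2 libraries), 1627 cells in all, of which 15.9% were splenic, 41.4% from muscle library 1 and 42.7% from muscle library 2. They were then encapsulated by inDrops, which primes messenger RNA with oligo dT and tags each captured molecule with a unique molecular identifier (UMI). Spleen was dissociated mechanically and muscle with collagenase and dispase, so the tissue and the dissociation cannot be told apart. Uninjured mice are not among the groups.

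Ribosomal proteins assemble with ribosomal RNA into the small subunit, which decodes messenger RNA, and the large subunit, which forms peptide bonds; the acidic stalk proteins recruit elongation factors to the large subunit. Their messengers are among the most abundant in lymphocytes, and most begin with a 5′ terminal oligopyrimidine tract (TOP), a run of C and U that couples their translation to the growth regulator mTORC1. Production of ribosomes is a large part of a cell's biosynthesis, and T cells raise it when they leave rest and grow.

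The start sites of genes whose weight among the ribosomal protein messengers differed between tissues were searched for this tract. RefSeq promoter windows on GRCm38.p6 were matched to 62 of the 83 genes by symbol, with 74 start sites. The following 60-base windows run 5′ to 3′ on the strand of the gene, from 40 bases before to 20 bases after the annotated start. Capitals mark a run of at least 6 C or T, counted from a C within 5 bases of the start. Any C or T just before that C is not marked, as in Rpl7a, so a full run can be longer. Rpl27a is shown for the longest marked run. Rpl35a, Rpl35, Rpl12, Rps4x and Rpl26 are shown because they took a smaller share of ribosomal protein UMIs in muscle, and Rpl7a, Rpl38, Rpl41, Rpl7l1 and Rps27l because they took a larger one. Rpl35a is shown at the 1 of its 3 start sites that holds a run, and Rps27l at the first of 2, neither of which holds one.
Rpl27a, chr7:109519155-109519214, plus strand: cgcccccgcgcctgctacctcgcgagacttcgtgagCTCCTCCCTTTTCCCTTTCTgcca
Rpl35a, chr16:33056442-33056501, plus strand: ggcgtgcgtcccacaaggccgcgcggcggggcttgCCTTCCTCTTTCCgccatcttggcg
Rpl35, chr2:39005112-39005171, minus strand: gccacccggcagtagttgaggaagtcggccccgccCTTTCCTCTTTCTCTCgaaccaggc
Rpl12, chr2:32961672-32961731, plus strand: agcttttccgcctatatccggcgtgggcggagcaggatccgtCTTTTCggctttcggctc
Rps4x, chrX:102189372-102189431, minus strand: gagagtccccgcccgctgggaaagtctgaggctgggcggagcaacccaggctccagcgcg
Rpl26, chr11:68901526-68901585, plus strand: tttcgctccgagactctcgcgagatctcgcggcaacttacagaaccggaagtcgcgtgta
Rpl7a, chr2:26910767-26910826, plus strand: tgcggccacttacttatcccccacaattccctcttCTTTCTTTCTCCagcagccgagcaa
Rpl38, chr11:114668540-114668599, plus strand: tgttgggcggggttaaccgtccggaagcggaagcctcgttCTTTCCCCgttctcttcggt
Rpl41, chr10:128549149-128549208, minus strand: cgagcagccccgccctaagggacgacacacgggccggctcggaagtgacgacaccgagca
Rpl7l1, chr17:46782637-46782696, minus strand: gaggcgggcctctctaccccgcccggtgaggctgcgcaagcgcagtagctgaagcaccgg
Rps27l, chr9:66946046-66946105, plus strand: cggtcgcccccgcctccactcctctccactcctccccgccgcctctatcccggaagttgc
Such a run was found at 27 of the 74 ribosomal protein start sites (36.5%) and at 10.2% of 32851 start sites of all genes. Counted by gene, at any of its start sites, a run was found in 4 of 9 genes with a larger share in muscle, in 3 of the 5 with a smaller share and a matched window, and in 19 of 47 of the rest. Rps27l, Rpl7l1 and Rpl41, with the largest gains in share, and Rpl26 and Rps4x at the other end had none, nor had Rpl37 and Rpl19. No match says only that these letters are not at this annotated start. Over the full windows of 250 bases before to 50 after the start, searched on both strands, CCGGAAG, a core recognised by ETS factors, was in 35.1% of the ribosomal protein windows against 8.86% of all windows. AAGATGG, a core of the YY1 motif, was in 16.2% against 6.34%, and GGGCGG, the GC box, in 59.5% against 35.7%. TATAAA was in 9.46% against 13.6%, and CCAAT in 28.4% against 37.4%. CCGGAAG and AAGATGG can share the letters AAG, and windows of a gene with several start sites can overlap.

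The table held 982570 splenic UMIs, and 1533277 and 1916496 from the 2 muscle libraries, with medians of 3541, 1976 and 2487.5 UMIs per cell in this order, which the lists of 3 values below keep. Levels are given in CPM, the UMIs of a gene scaled to a library total of 1000000. Foxp3 was at 368.4, 554.4 and 551.5 CPM and Cd3e at 220.8, 221.7 and 223.3, whereas Ms4a1 of B cells was at 0 and Lyz2 of myeloid cells at 0, 1.957 and 3.13. The whole myeloid list of 17 genes summed to 159.8 CPM in spleen and 75.7 and 80.9 in muscle, the B cell list to 89.6, 209.4 and 224.9, and the list of muscle fibre, fibroblast and endothelial genes to 148.6, 92.6 and 106.97. Their part in the results was not tested. One cell barcode was shared by spleen and muscle library 1, none by spleen and muscle library 2, and 11 by the muscle libraries. No label names the animals, so a library is 1 sample and no test between tissues is possible; intervals are exact and at the 95% level, and cover counting error only.

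Ribosomal protein genes took a larger share of the transcriptome in splenic Tregs than in muscle Tregs. They made up 21.98% of all UMIs in spleen (exact binomial interval 21.90 to 22.06), but 13.24% (13.19 to 13.30) and 13.56% (13.51 to 13.60) of those in the muscle libraries. The muscle libraries lay near each other and far below the spleen library, which was 1.66-fold higher than muscle library 1 (exact interval 1.65 to 1.67) and 1.62-fold higher than muscle library 2 (1.61 to 1.63). A share is relative, so fewer ribosomal protein messengers and more messengers of other genes cannot be told apart. The large subunit took 10.8% of UMIs in spleen against 6.65% and 6.91% in muscle, the small subunit 9.59% against 5.59% and 5.71%, and the stalk 1.57% against 1.003% and 0.937%.

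Single cells showed the same order, with overlap. In spleen the share ran from 8.07% to 40.7% with a median of 22.2% and quartiles of 16.5% and 27.4%. In muscle library 1 it ran from 4.78% to 31.7% with a median of 12.6%, and in muscle library 2 from 3.02% to 29.5% with a median of 13.2%. More than 20% of UMIs came from these genes in 61.4% of splenic cells, in 3.71% of cells of muscle library 1 (25 cells) and in 4.47% of cells of muscle library 2 (31 cells). The spread was wider in spleen: the standard deviation over cells was 6.88 percentage points there, 3.59 in muscle library 1 and 3.71 in muscle library 2. Sampling of UMIs alone would give 0.732, 0.771 and 0.706, so the cells varied 9.40, 4.65 and 5.25 times more than counting error. A splenic cell had UMIs of 75 of the 83 genes at the median, and a muscle cell of 67 or 68; at an equal 1000 UMIs per cell these became 65, 55 and 54.

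**Figure D1:**
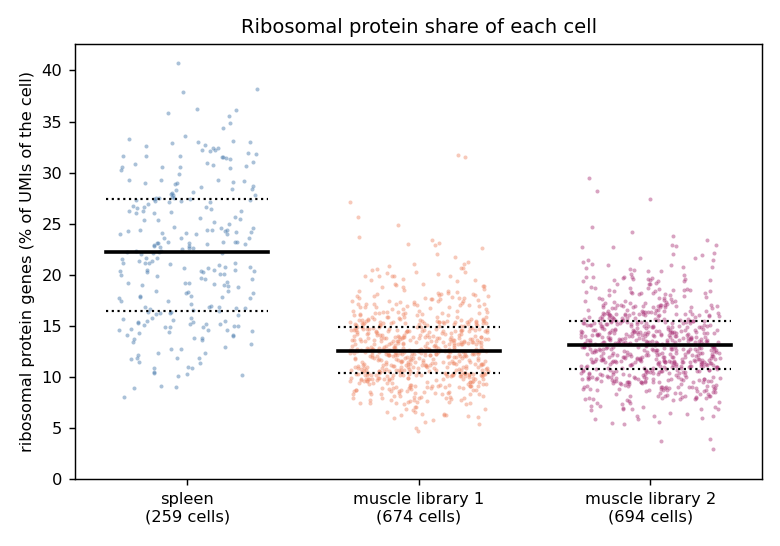
Share of each cell's UMIs from the 83 ribosomal protein genes (y axis, percent), 1 point per cell, by library; solid lines are medians and dotted lines quartiles. The splenic median of 22.2% lies above the upper quartiles of both muscle libraries, but the ranges overlap.

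The lower level in muscle ran through the family gene by gene. A gene was counted as lower when both muscle libraries were at least 1.5-fold below spleen and as higher when both were at least 1.5-fold above, among genes with 50 UMIs or more over all libraries. Of the 83 genes, 81 reached 50 UMIs; 45 of them were lower, 1 was higher (Rps27l) and 35 were neither. With library totals taken without the ribosomal protein UMIs, 62 were lower, against 15.1% of all genes. Rps27l, at 1.86- and 1.48-fold, then no longer passed. With full library totals, 10.8% of all 7617 genes with 50 UMIs or more were lower and 15.9% higher. Among other genes with at least 2000 UMIs 5.34% were lower and 27.4% higher. At 2-fold, 7 ribosomal protein genes were lower and none higher, against 3.45% and 7.47% of all genes. The median log2 fold of muscle over spleen was -0.74 and -0.70 for the ribosomal protein genes and 0.06 and 0.08 for all genes. All 76 members with at least 1000 UMIs were below spleen in both muscle libraries, at 0.425 to 0.917 of the splenic level in library 1 and 0.398 to 0.994 in library 2, and for 74 of them the smaller tissue difference exceeded the difference between the muscle libraries.

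**Figure D2:**
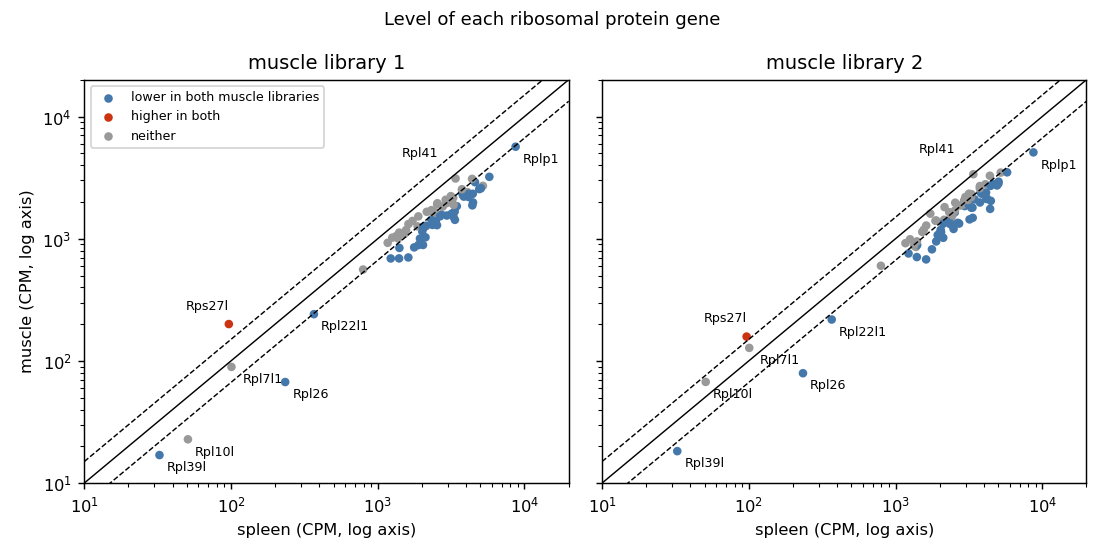
Level of each of 81 ribosomal protein genes in spleen (x axis) and in each muscle library (y axis), in CPM on log axes; the solid line is equality and the dashed lines 1.5-fold. Nearly all points lie below equality, and Rps27l is the single point above the upper line in both panels.

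The most abundant member was a gene of the stalk. Rplp1, which with Rplp2 forms the flexible arms of the stalk (Rplp1 at chr9:61913284-61914542, minus strand, on GRCm38), was the most abundant member in every library, at 8700 CPM in spleen, with 5662 and 5088 in the muscle libraries. Both muscle libraries were lower, at 0.651 (exact interval 0.632 to 0.671) and 0.585 (0.568 to 0.602) of spleen. Rplp2 was at 3162, 2099 and 1886 CPM, and Rplp0, the base of the stalk that anchors them, at 3802, 2272 and 2391. All 3 stalk genes were lower by the rule. UMIs count captured molecules near the poly(A) tail, so these levels are not divided by transcript length.

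Among the other most abundant members, Rps14, a protein of the small subunit's platform, was at 5759, 3209 and 3493 CPM in spleen and the muscle libraries. Rps16 was at 5038, 2596 and 2930, Rpl13a at 5025, 2581 and 2824, and Rps23, a protein of the decoding centre, at 4394, 3088 and 3277. In each of them spleen was the highest library. Rps14, Rps16 and Rpl13a were lower by the rule, and Rps23 missed it in both muscle libraries.

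By subunit, 24 of 47 large-subunit genes tested were lower and none higher, with median log2 folds of -0.73 and -0.67. In the small subunit 18 of 31 were lower and 1 higher, with medians of -0.80 and -0.72. The 7 genes lower by 2-fold included Rpl12, Rpl26, Rpl35, Rpl35a, Rps25 and Rps4x. Rps4x, the X-linked protein of the small subunit (chrX:102184941-102189394, minus strand), was at 4412 CPM in spleen against 1875 and 1755 in muscle, or 0.425 (0.405 to 0.446) and 0.398 (0.380 to 0.416) of spleen. Rpl12, which lies at the foot of the stalk (chr2:32961559-32965345, plus strand), was at 4459 against 1980 and 2041. Rps25, known for its part in initiation at internal ribosome entry sites, was at 2115 against 1027 and 1017. In all of these the muscle libraries stood close together, well below spleen.

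The makeup of the ribosomal protein messengers was then compared, with each gene as a percentage of the ribosomal protein UMIs of its library, so that the common fall does not enter. A share was counted as smaller when it was at most 0.8 of the splenic one in both muscle libraries, and as larger when the splenic one was at most 0.8 of that in both. Of 81 genes 9 took a larger share in muscle, 6 a smaller share and 66 neither. Among other genes with at least 2000 UMIs, set against the UMIs of all other genes in the same way, 34.2% took a larger and 17.1% a smaller share. The spread of the log2 folds over the 81 genes was a standard deviation of 0.35 in each muscle library, against 0.23 between the muscle libraries.

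Rps27l, a paralog of Rps27 that is known as a target of p53 (chr9:66946086-66949516, plus strand), stood apart at the upper end. It was at 96.7 CPM in spleen, with 200.2 and 158.1 in the muscle libraries. Against spleen this was 2.07-fold in library 1 (exact interval 1.64 to 2.64) and 1.64-fold in library 2 (1.295 to 2.08), the latter 1.48-fold and under the rule with library totals without the members, while Rps27 itself was at 4915, 2547 and 2729 CPM. Of the UMIs of the pair, Rps27l gave 1.93% in spleen (1.56 to 2.35), with 7.29% (6.52 to 8.12) and 5.48% (4.89 to 6.11) in the muscle libraries. Rps27l was seen in 18.9% of splenic cells, 27.9% of cells of muscle library 1 and 27.7% of cells of muscle library 2. At 1000 UMIs per cell these became 5.79%, 12.2% and 11.8%.

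Rpl41, which encodes the smallest ribosomal protein (chr10:128548114-128549305, minus strand), was nearly level between tissues at 3390, 3110 and 3371 CPM, so its share of ribosomal protein UMIs went from 1.54% in spleen to 2.35% and 2.49% in muscle. Rpl7a of the large subunit (chr2:26910764-26913318, plus strand) was at 1726, 1398 and 1602 CPM, and its share rose from 0.785% to 1.06% and 1.18%. Rpl34 was at 1618, 1317 and 1282 and Rpl37 at 1256, 1021 and 989; each was below spleen in both muscle libraries, but by less than the family as a whole. Rpl7l1, a paralog of Rpl7 with a part in ribosome assembly, was at 100.8, 89.4 and 127.8 CPM, on either side of spleen in the 2 muscle libraries. Its share of the UMIs of the pair with Rpl7 was 2.38% in spleen (1.94 to 2.89), with 3.70% (3.11 to 4.36) and 5.09% (4.48 to 5.75) in the muscle libraries. Rpl38, Rpl14 and Rpl19 also took a larger share, by 1.253- to 1.364-fold over the 3 genes and both muscle libraries.

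At the lower end stood Rpl26, which sits at the exit of the peptide tunnel (chr11:68901583-68906989, plus strand). It was at 234.1 CPM in spleen, with 67.2 and 79.3 in the muscle libraries. Its share of ribosomal protein UMIs was 2.10-fold lower in library 1 (exact interval 1.66 to 2.68) and 1.82-fold lower in library 2 (1.48 to 2.25). Rps4x took 2.01% of ribosomal protein UMIs in spleen against 1.42% and 1.29% in muscle, Rpl35a 1.53% against 1.08% and 1.09%, and Rpl12 2.03% against 1.49% and 1.51%. Rpl35 took 0.806% against 0.641% and 0.604%. In each the muscle libraries differed from each other by less than from spleen.

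**Figure D3:**
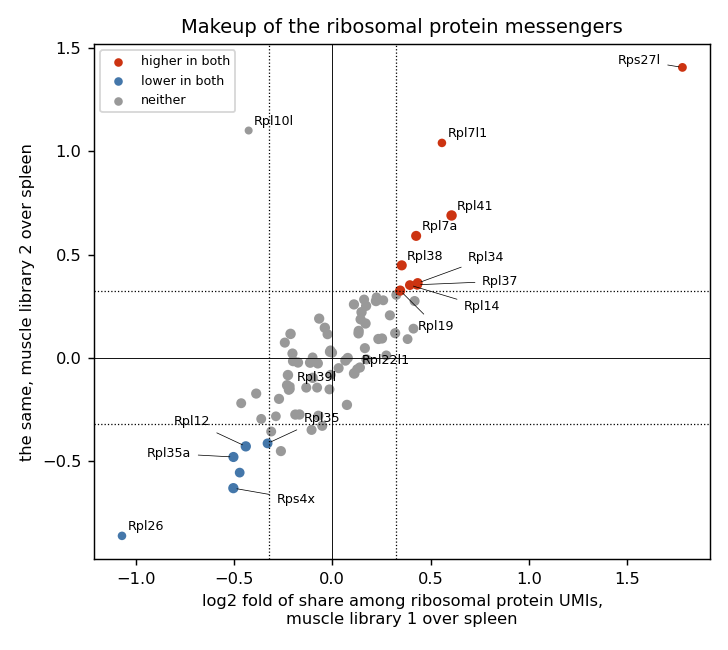
Log2 fold of each gene's share among ribosomal protein UMIs, muscle library 1 over spleen (x axis) against muscle library 2 over spleen (y axis), 81 genes; dotted lines mark the ratio of 0.8 either way, and larger points have more UMIs. Both axes share the spleen library, so the diagonal is no sign of agreement; Rps27l lies at the upper right, Rpl26 at the lower left, and Rpl10l has opposite signs on the 2 axes.

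The remaining paralogs were scarce. Rpl22l1, a paralog of the RNA-binding protein Rpl22 that is known in T cell development, was at 367.4 CPM in spleen, with 241.3 and 218.1 in the muscle libraries. It gave 21.05% of the UMIs of the pair with Rpl22 in spleen (19.1 to 23.1), with 19.4% (17.6 to 21.2) and 20.3% (18.6 to 22.1) in the muscle libraries, so the intervals overlap and no shift between the 2 forms was detectable. These percentages leave out Gm15421, a row with a transcript nearly identical to that of Rpl22l1, at 335.9, 231.5 and 212.4 CPM. No such copy was found for Rpl22, so the true weight of Rpl22l1 in the pair is uncertain. Rpl39l, the paralog of Rpl39 best known from male germ cells, was at 32.6, 16.96 and 18.3. Rpl10l, the intronless paralog of Rpl10 also known from spermatogenesis (chr12:66283379-66284401, minus strand), was at 50.9, 22.8 and 67.3; the muscle libraries differed 2.95-fold from each other, more than either did from spleen, so no direction can be given. Rps4l, annotated in GENCODE M21 as a transcribed processed pseudogene, had 20 UMIs in all. Rpl3l, the form of Rpl3 typical of mature muscle fibres (chr17:24727820-24736143, plus strand), had 0 UMIs in all libraries, which allows up to 3.05, 1.957 and 1.57 CPM.

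Many of these genes have processed copies, and the counting of reads that fit several places is not given in the sources used here. Of 82 members with a coding transcript in GENCODE M21, 57 had at least 1 transcript of another gene matching the last 300 bases of one of theirs over 150 bases at 98% identity, up to 27 for Rps2. The count table holds rows for 8 of these copies, with 0.527% of UMIs in spleen and 0.334% and 0.361% in muscle, so the sum of the copies was lower in muscle. The copies, meaning only rows of genes with such a match, did not all go this way. BC004004, which matches Rpl21, was at 79.4 CPM in spleen against 100.4 and 121.6 in muscle. Wdr89, a gene with a transcript that matches Rplp2, was at 452.9 against 630.02 and 653.8. Values of such genes are therefore uncertain: Rps15a was at 2442, 1650 and 1554 CPM, but with its copies at 5416, 3314 and 3303. Rpl31 was at 1893, 888 and 950, and with its copy Rpl31-ps12 at 3089, 1462 and 1570. Rplp2 joined with the whole Wdr89 row was at 3615, 2729 and 2540, and then stood at 0.755 and 0.703 of spleen, no longer past 1.5-fold. How many UMIs of the Wdr89 row came from the matching stretch was not tested. Rpl21 with its copy (0.605 and 0.673 of spleen) and Rpl22l1 with its copy Gm15421 (0.672 and 0.612) then missed the rule in 1 muscle library each. Of the 57 genes with a copy 35 were lower and none higher, and of the 24 tested genes without one 10 were lower and 1, Rps27l, higher. Of the genes with a changed share, Rps27l, Rpl7l1, Rpl37, Rpl14 and Rpl12 had no such copy.

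Of 4 ribosome genes that the symbol rule leaves out, 2 were lower in muscle and none higher. Rpsa, a small-subunit protein also known as the laminin receptor, was at 3182 CPM in spleen against 1769 and 1919 in muscle, and Gnb2l1 (Rack1), the signalling scaffold on the small subunit, at 3571 against 2067 and 2225; both were lower by the 1.5-fold rule. Fau, a fusion of a ubiquitin-like protein with Rps30, was at 2380 against 1904 and 2110 and did not pass it. Of 21 elongation factors and other messengers with known TOP tracts, 7 were lower and 1 higher. The elongation factor genes Eef1b2 (1560 against 919 and 1019 CPM) and Eef1g, and Npm1, Pabpc1, Eif3f, Eif4b and Eef1e1, were lower. Eef1a1, which delivers aminoacyl-tRNA, was at 9071 against 6421 and 5803 CPM, Tpt1 at 11194 against 8730 and 7879, and Eef2, which drives translocation, at 1149 against 1104 and 1087; none of them passed the rule. Vim, an intermediate filament gene on the same list, was the exception, at 547.5 against 2622 and 2630.

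The other lists of the translation machinery had medians nearer to that of all genes. Of 30 initiation factor genes 1 was lower (Eif2b1) and 1 higher (Eif6), with median log2 folds of 0.00 and -0.08; Eif1, which guards start codon choice, was at 1815 CPM in spleen against 1556 and 1836 in muscle. Of 50 tested ribosome biogenesis genes 8 were lower, among them the small nucleolar RNP genes Dkc1, Nop10 and Nop56, and 2 were higher (Bop1 and Rrs1), with medians of -0.27 and -0.17. Of 22 tested ribosome chaperones and associated factors 6 were lower, among them Sbds, Abce1 and Pelo, and 2 higher (Bag6 and Ipo5). Of 71 mitochondrial ribosomal protein genes, whose products serve the separate ribosome of mitochondria, 13 were higher and 4 lower, with medians of 0.14 and 0.20; Mrpl33 was at 78.4 against 157.2 and 154.4 CPM. Of 22 genes of mTORC1 and Myc growth control 7 were higher, among them the Ragulator genes Lamtor1, Lamtor2, Lamtor3 and Lamtor5 and Ddit4, an inhibitor of mTORC1 (149.6 against 450.02 and 520.7 CPM), and 3 were lower (Sesn1, Mtor and Tsc2). Each of these shares can be read against the 10.8% lower and 15.9% higher among all genes.

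The share was next set against the UMIs captured from the cell, since muscle cells had fewer. Over cells, the rank correlation of share and total UMIs was -0.082 in spleen, with 0.17 and 0.14 in the muscle libraries. Cells of a library share a preparation, so these are descriptions. Splenic cells of fewer than 1500 UMIs had a median share of 19.2% (13 cells), those of 2000 to 3000 UMIs 23.1% (63 cells) and those of 4000 or more 20.7% (95 cells). The same classes had medians of 12.3%, 12.7% and 14.5% in muscle library 1 and 12.2%, 13.1% and 14.3% in muscle library 2. In each of the 5 classes of depth compared, spleen was above both muscle libraries. Sequencing depth differed too, with medians of 42.7, 19.6 and 35.6 mapped reads per UMI; the muscle libraries differed from each other in it by more than muscle library 2 did from spleen, and its rank correlation with share over cells was -0.23, -0.11 and -0.04.

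**Figure D4:**
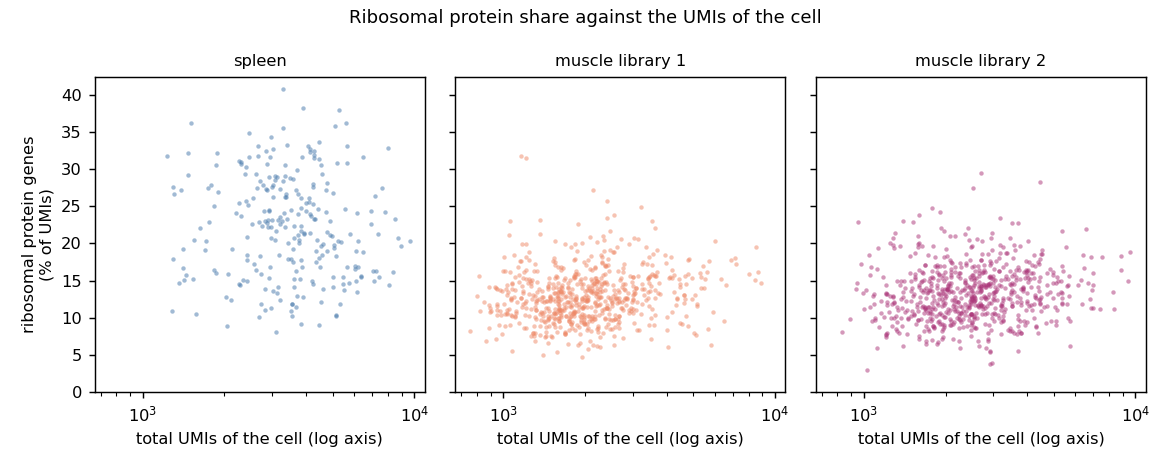
Ribosomal protein share of each cell (y axis, percent of UMIs) against the total UMIs of the cell (x axis, log), 1 panel per library. The rank correlations are -0.082, 0.17 and 0.14, and splenic cells lie high along the whole axis.

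Set against the UMIs of all other genes, the rank correlation was -0.28 in spleen and 0.083 and 0.047 in muscle. A straight line through the logarithms gave a slope of ribosomal protein UMIs on other UMIs of 0.770 in spleen, with 1.04 and 1.02 in the muscle libraries. The slope was thus near 1 in muscle and below 1 in spleen. At a given total, more ribosomal protein UMIs leave fewer UMIs of other genes. This lowers both the correlation and the slope where shares vary widely, as in spleen. These values therefore do not show how the family scales with the rest of the transcriptome.

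Cells were then drawn to 1000 UMIs each (0, 26 and 7 shallower cells left out) and compared with 2 gene lists, each as a share of the UMIs of other genes so that the ribosomal protein genes do not enter it. The first held 27 resting lymphoid genes, such as Ccr7, which guides T cells to lymphoid organs, and S1pr1, which lets them leave. Of 23 tested, 19 were lower in muscle and none higher, against 10.8% and 15.9% of all genes. The list was chosen with earlier results of these data known, so this count is no independent support. In spleen the ribosomal protein share was higher in cells with more of this list, at a rank correlation of 0.42 over cells: the median was 16.4% in 16 cells with under 0.1% of resting UMIs and 25.2% in 93 cells with 0.8% or more. In muscle the correlations were 0.053 and 0.11, and the medians went from 13.1% to 12.9% in library 1 and from 13.2% to 15.05% in library 2. Of the 27 genes 9 had been added with earlier results of these data in view; without them the correlations were 0.30, 0.030 and 0.088.

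The resting genes differed among themselves. In spleen, cells with a UMI of Satb1, a chromatin organiser of naive T cells, had a median ribosomal protein share of 28.25% against 20.9% in cells without (54 cells with), and cells with Ccr7 24% against 21.1% (59 cells with). Cells with a UMI of S1pr1 had 22% against 22.25%, with Foxo1, a transcription factor of quiescence, 21.1% against 22.65%, and with Il7r, the receptor for interleukin 7, 18.8% against 22.75%. Of 22 resting genes with enough cells in spleen, 16 went with a higher share and 6 with a lower one. In muscle library 1 8 of 14 went with a higher share and in muscle library 2 8 of 15. At equal total UMIs, cells with a lower ribosomal protein share hold more UMIs of other genes. These comparisons therefore lean toward a lower share in cells with the gene.

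The second list held 50 effector and tissue Treg genes, such as Gzmb, the protease of cytotoxic granules, Icos, a costimulatory receptor, and the calcium-binding S100a4 and S100a6. Of 49 tested, 37 were higher in muscle and none lower, against 15.9% and 10.8% of all genes. This list too was chosen with earlier results of these data known. The ribosomal protein share was lower in cells with more of this list, with rank correlations of -0.63 in spleen, with -0.30 and -0.22 in the muscle libraries. In spleen the median share was 24.6% in cells with under 2% of effector UMIs (67.2% of the cells), 16.9% in those with 2 to 4% (27.4%), and 14.95% in those with 4 to 6% (3.86%, 10 cells). Over the same classes it was 15.3%, 13.3% and 12.2% in muscle library 1, where they held 5.25%, 34.1% and 41.7% of the cells. In muscle library 2 it was 14.5%, 13.9% and 12.7%, with 6.40%, 35.2% and 43.7% of the cells. In each of these 3 classes spleen lay above both muscle libraries. At 6 to 8% the medians were nearly level, at 12.1% in 3 splenic cells against 11.8% and 11.85% in muscle, and the single splenic cell with 8% or more had 10.9%, between the muscle medians of 10.55% and 11.3%.

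Among cells with 2 to 4% of effector UMIs the ribosomal protein share in muscle was 0.775 and 0.791 of that in spleen, against 0.603 and 0.617 over all cells. In the same cells 10 of 81 members were lower by 1.5-fold and 1 higher, against 26.1% of all genes lower. With 71 splenic cells drawn to 1000 UMIs, counts there are low. A gene at 0 in these splenic cells was set to 3 counts, so a scarce gene could count as lower without splenic UMIs. The 26.1% is therefore not a like background for the members. Cells with and without a UMI of single genes were also compared. In spleen, cells with a UMI of S100a4 had a median share of 15.3% against 23.7% without (57 cells with), with S100a6 15.35% against 23.6% (60 cells with), and with Icos 17.4% against 23.85% (89 cells with). Of 33 effector genes with enough splenic cells 32 went with a lower share, as did 41 of 49 in muscle library 1 and 39 of 50 in muscle library 2. All cells were set to 1000 UMIs, so those with a lower ribosomal protein share hold more UMIs of other genes. A UMI of any such gene is then likelier in them, so part of this direction is built in. The same count over all other genes was not made. Immediate early genes, which tissue dissociation can induce, summed to 9704 CPM in spleen and 13478 and 13145 in muscle, and their rank correlation with the ribosomal protein share over cells was -0.10, -0.03 and -0.01.

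**Figure D5:**
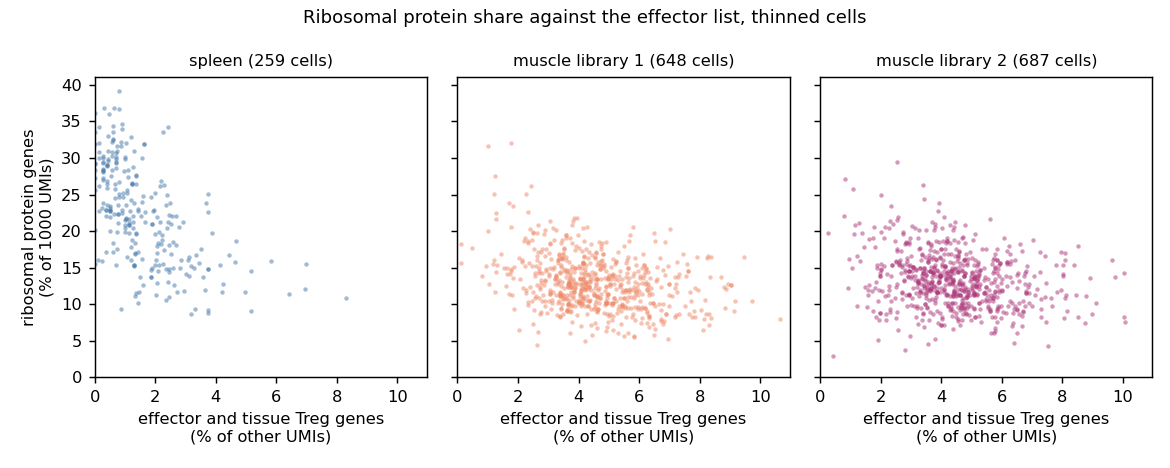
Ribosomal protein share (y axis, percent of 1000 UMIs) against the share of effector and tissue Treg genes among the other UMIs (x axis, percent), 1 point per thinned cell, by library. Most splenic cells lie under 2% on the x axis and spread widely in height; the share is lower further along the axis in all panels, with rank correlations of -0.63, -0.30 and -0.22.

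The members moved together over cells. Each of the 76 genes with at least 1000 UMIs correlated positively with the sum of the other members in every library, with median rank correlations of 0.37 in spleen and 0.25 in both muscle libraries at 1000 UMIs per cell. The lowest in spleen was Rpl22l1 at 0.06 and the highest Rps24 at 0.59. With the effector list all 76 correlated negatively in spleen, 75 in muscle library 1 (all but Rpl7a) and 73 in muscle library 2. With the resting list 72, 54 and 56 correlated positively.

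Of 1475 genes with at least 500 UMIs outside the family, the one whose level followed the ribosomal protein share most closely in all libraries was Eef1a1, with rank correlations of 0.40 in spleen, with 0.39 and 0.39 in the muscle libraries. Gnb2l1 (0.33, 0.31 and 0.28), Rpsa (0.27, 0.30 and 0.37), Eef1b2 (0.35, 0.19 and 0.21) and Npm1 (0.16, 0.16 and 0.16) were also near this end among named protein-coding genes. The rows Mir703 (0.34, 0.38 and 0.33) and Mir682 (0.31, 0.17 and 0.19), which GENCODE M21 lists as miRNA genes, stood at this end too. Of the 20 genes at this end, 9 were predicted genes or pseudogenes. At the other end stood Gzmb (-0.29, -0.21 and -0.26), the class I antigen presentation genes H2-K1 (-0.22, -0.22 and -0.21), H2-D1 (-0.21, -0.19 and -0.31), H2-Q7 (-0.16, -0.18 and -0.22) and H2-K2 (-0.14, -0.17 and -0.24), Ly6a (-0.25, -0.20 and -0.24), the NF-kB inhibitor Nfkbia (-0.22, -0.18 and -0.17) and Icos (-0.41, -0.23 and -0.16). The median over all 1475 genes was -0.05, -0.02 and -0.02, and all these values share the cells and their 1000 UMIs.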

How the data were processed

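The authors deposited whole-number UMI counts per gene and cell, unnormalized, from reads mapped to mm10 with TopHat2 and processed with SAMtools, per the submitters' processing notes; versions, gene annotation, strandedness and how reads with several matches were counted were not given in the sources used here. Cells were assigned to libraries by title: 259 of spleen, 674 of muscle library 1 and 694 of muscle library 2 (259, 648 and 687 after thinning). Counts were summed per library and divided by library totals (CPM); 1 UMI is worth 1.02, 0.652 and 0.522 CPM in spleen and muscle libraries 1 and 2. Of a gene at 0, 3 counts give the upper limit. Folds carry exact conditional binomial intervals. Cells hold 756 to 9628 UMIs. Cells were thinned without replacement to 1000 UMIs (seed 1), and rank correlations are Spearman's. No doublet calling, clustering or test between tissues was done, since each library is 1 sample; cells are not replicates. The rules were run on simulated library counts with planted folds and counting error only. That check does not cover differences between cells, preparations or animals. Scaling alternatives used edgeR 4.0.16 (TMM) and DESeq2 1.42.0 (size factors) on the summed counts, with no test. Copies were sought with blastn 2.17.0 in GENCODE M21 (GRCm38, the build mm10). The members, lists and tests were chosen with earlier results of these data known. Named members are the 6 most abundant, the 6 with the largest rise and the 6 with the largest fall in share among ribosomal protein UMIs (at least 100 UMIs). All paralogs and members under 50 UMIs are named too. Other genes are up to 4 per list by UMIs and 8 at each end of the likeness ranking (at least 500 UMIs). Further genes of the lists, and Rpl14, Rpl19, Rpl38, Rps25, Rps15a and Rpl31, were named after their values were seen. Some genes that these rules name are not reported here.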

Additional observations from a re-analysis of the deposited data

How the results depend on the processing

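The direction of the difference held in every setting run: the ribosomal protein share in muscle was below that in spleen, and more members were lower than higher. As folds of muscle libraries 1 and 2 over spleen, the share was 0.567 and 0.592 from medians of cells, 0.608 and 0.599 in cells of 2000 to 4000 UMIs, 0.594 and 0.613 without cells over 3 times their library's median, 0.604 and 0.621 with the 4 ribosome genes outside the symbol rule, and 0.619 and 0.635 over members without a near-identical copy. In cells with 2 to 4% of effector UMIs, a setting added after seeing the data, it was 0.775 and 0.791. There 10 members (12.3%) were lower instead of 45 (55.6%), against 26.1% of all genes instead of 10.8%. The 26.1% can hold scarce genes at 0 in spleen, which were set there to 3 counts, so it is not a like background. The median log2 folds in that setting were -0.37 and -0.31 for the members. Over all genes with UMIs in both libraries compared they were -0.05 and -0.12. Totals without the members gave 62 lower and 0 higher (Rps27l was lost), against 15.1% of all genes lower. They moved the split of all genes from 59.4% higher among those called to 44.3%. At 2-fold 7 members were lower and 0 higher, against 3.45% and 7.47% of all genes. With either muscle library left out, 51 to 54 members were lower and 1 higher. In the makeup of the family, 9 higher and 6 lower became 2 and 1 at 1.5-fold and 4 and 1 over members without a copy (a subset, so fewer genes tested), and 10 to 13 higher and 10 lower when a muscle library was left out. The correlation with total UMIs became -0.28, 0.083 and 0.047 against the UMIs of other genes. That with the resting list became 0.30 in spleen without the genes added later, and 0.025 in muscle library 2 without thinning. The mean log2 fold of Rpl22l1 became 0.051 in the cells with 2 to 4% of effector UMIs; of all values for 21 named members under the alternatives, 60 more moved beyond counting error. Among members not called at 1.5-fold, the sign also differed in 5 settings for Rpl7l1 (0.085 became -0.31 to -0.020), for Rpl10l without muscle library 1 (-0.38 became 0.40) and for Rpl41 in the cells with 2 to 4% (-0.066 became 0.20). The cause was not tested. No paired analysis was possible because replicate numbers only name cells and each tissue library is 1 sample. Genes near 50 UMIs carry wide intervals, and the number of animals is not given.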
